A study of Mus musculus with 16 samples.

Results

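Adiponectin, the hormone missing from the deficient mice of the study, and its receptors were followed through 16 lung arrays. All probe sets (groups of short probes that read 1 transcript region) whose annotation gave exactly 1 symbol among Adipoq, Adipor1, Adipor2 and Cdh13 were taken. They numbered 8 of the 22626 probe sets tested, with 1 for Adipoq, 3 for Adipor1, 1 for Adipor2 and 3 for Cdh13. Each array read 1 mouse, from total RNA of its left lung. The wildtype mice were C57BL/6, and the other mice were genetically deficient in adiponectin with C57BL/6 given as the background strain. Mice of each genotype were kept for 72 h in room air or in ozone, an oxidant pollutant, at 0.3 ppm, and the lungs were taken directly afterwards. The 4 groups (wildtype air, wildtype ozone, deficient air, deficient ozone) had 4 mice each, 2 males (M1, M2) and 2 females (F1, F2), with a mean age of 14 weeks. Which part of Adipoq was removed in the deficient mice, and whether it includes the sequence read by the Adipoq probe set, were not given in the sources used here. Values are log2 intensity, differences are log2 ± SE with n = 4 arrays per group, and a probe set counted as changed when the limma p adjusted over all 22626 probe sets by Benjamini-Hochberg was under 0.05. The p-values measure the spread between these mice. Probes differ in brightness, so the brightness of a probe set is given only to describe it and does not rank the RNA of one gene against another.

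Adiponectin is secreted by fat cells, circulates in assemblies of several sizes, and reaches the lung through the blood. Adipor1 and Adipor2 encode membrane receptors with ceramidase activity, of which AdipoR1 is usually linked to AMP-activated kinase (AMPK) and AdipoR2 to the nuclear receptor PPAR-alpha. Cdh13 encodes T-cadherin, a cadherin that is held on the cell surface by a lipid anchor, is found on endothelium and smooth muscle, and binds the large adiponectin assemblies. Adiponectin protein was not measured here. In RNA from whole lung, fewer cells of a type and less RNA per cell cannot be told apart.

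RefSeq places Adipoq at chr16:23146536-23157968, Adipor1 at chr1:134415378-134433351, Adipor2 at chr6:119353150-119417699 and Cdh13 at chr8:118140017-119324929 in the mouse assembly GRCm38.p6. The 250 bases before a listed transcript start of 3 of these genes are shown as a description, and a link between them and the values of the genes was not tested. Capitals mark the CCAAT box (letters CCAAT on either strand) and the GC box (letters GGGCGG on either strand), which were both searched by exact match. They lie at chr16:23146286-23146535 on the plus strand for Adipoq, chr1:134415128-134415377 on the plus strand for Adipor1, and chr6:119388735-119388984 on the minus strand for Adipor2. The start used for Adipor2, the only 1 in the promoter table, lies inside the span given for the gene and not at its end.
Adipoq: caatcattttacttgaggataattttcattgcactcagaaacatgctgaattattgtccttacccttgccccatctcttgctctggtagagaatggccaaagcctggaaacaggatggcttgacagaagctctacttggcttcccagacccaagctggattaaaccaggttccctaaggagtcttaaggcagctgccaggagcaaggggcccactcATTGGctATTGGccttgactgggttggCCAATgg
Adipor1: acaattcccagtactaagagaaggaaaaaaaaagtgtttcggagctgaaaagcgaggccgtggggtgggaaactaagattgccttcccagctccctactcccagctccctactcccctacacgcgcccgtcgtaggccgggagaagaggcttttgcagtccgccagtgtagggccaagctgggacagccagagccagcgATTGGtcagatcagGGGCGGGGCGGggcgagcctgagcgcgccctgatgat
Adipor2: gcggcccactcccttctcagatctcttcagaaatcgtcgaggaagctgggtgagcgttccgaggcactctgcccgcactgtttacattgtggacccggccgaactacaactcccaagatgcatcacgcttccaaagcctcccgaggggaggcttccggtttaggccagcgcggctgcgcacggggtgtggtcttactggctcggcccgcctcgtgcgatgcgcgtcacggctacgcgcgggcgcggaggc
The Adipoq stretch held 3 CCAAT boxes close to its end, no GC box and 0 CpG pairs, at 48.8% G and C. The Adipor1 stretch held 1 CCAAT box, 2 GC boxes that overlap each other, and 15 CpG pairs, at 59.6% G and C. RefSeq lists 2 starts for Adipor1, of which the first is shown. The Adipor2 stretch held neither motif and 27 CpG pairs, at 64.8% G and C. Among 32851 mouse stretches of the same length, the median was 52.4% G and C and 6 CpG pairs, 33.8% held a CCAAT box and 32.7% a GC box. A direct-repeat PPAR response element, searched on both strands, was found in none of the 3 stretches and in 0.0335% of all. A match of letters is a description and not a site.

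Array medians lay between 146 and 154 in linear intensity, and precision is limited by how many arrays there are. For wildtype ozone F1 the labels conflict, since a free-text field says room air and the title, source and exposure say ozone, and it was kept with ozone. Wildtype air F1 and deficient air F2 stood out in Ucp1, which uncouples respiration in brown fat, with 7.25 and 7.27, while the other 14 arrays read 4.62 to 5.18. They and deficient air M2 are the arrays left out, together or the first pair alone, where a result is given without arrays with markers of other tissues. Deficient air M2 read 4.80 for Ucp1, and the markers for which it was set aside are not given here. Wildtype ozone M2 stood apart in neutrophil genes, with the granule protein gene S100a8 at 13.68.

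**Figure D1:**
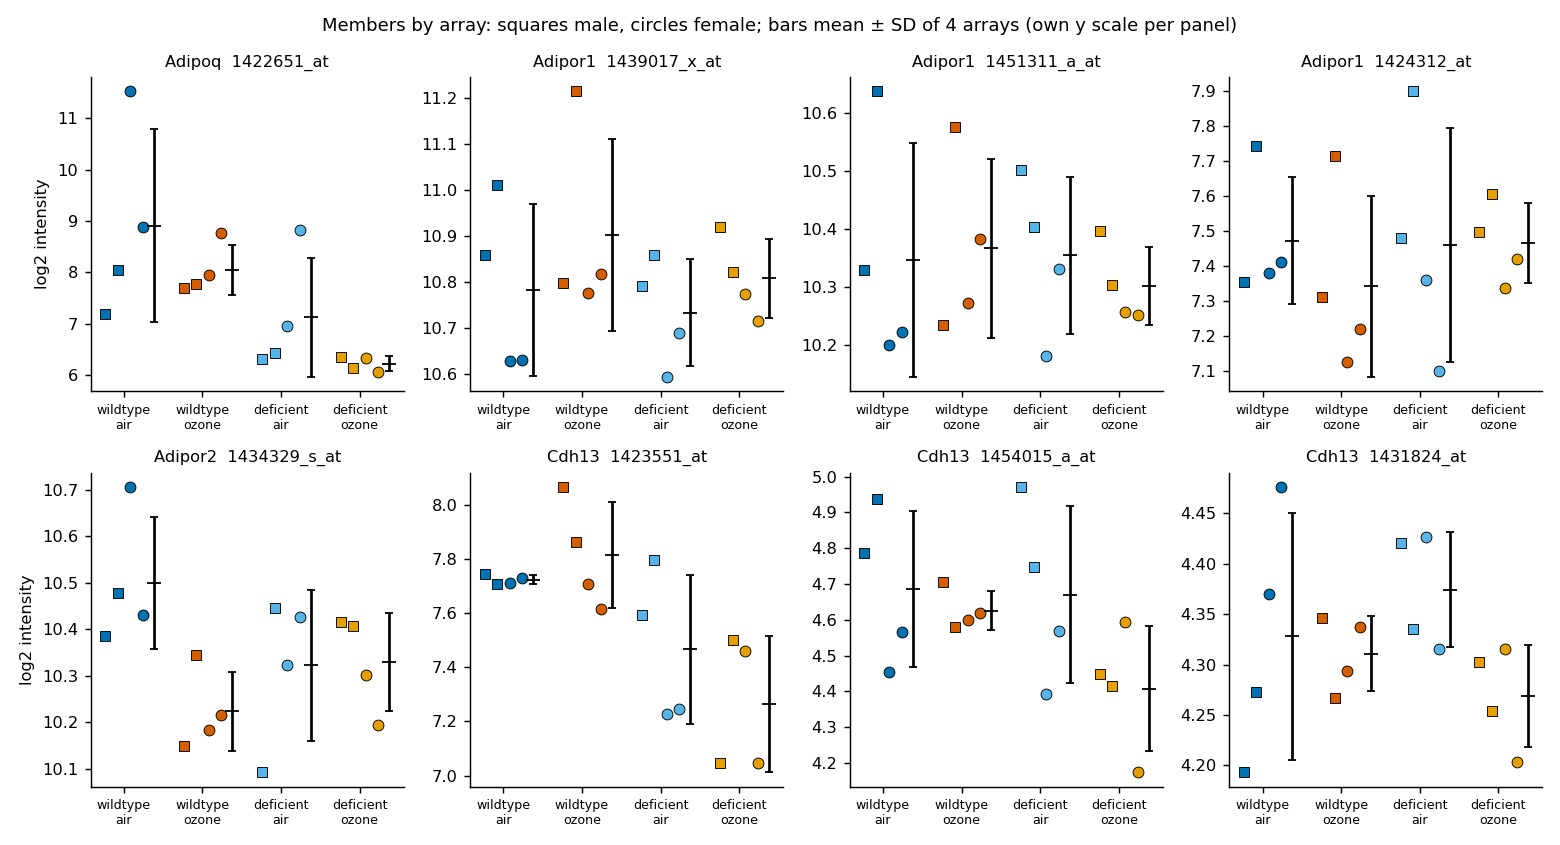
Log2 intensity (y axis, own scale in each panel) of the 8 probe sets of Adipoq, Adipor1, Adipor2 and Cdh13 on each of the 16 arrays by group (x axis), with squares for males, circles for females and bars for the mean ± SD of 4 arrays. Adipoq ran from 6.07 to 11.52, while Adipor2 stayed between 10.09 and 10.71.

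Adipoq was the member that varied most. It was lower in the deficient mice in both exposures, and the difference between genotypes was 3.48-fold over all arrays. In wildtype air it read 7.19 on M1, 8.05 on M2, 11.52 on F1 and 8.89 on F2. In wildtype ozone the 4 values were 7.70, 7.77, 7.96 and 8.76 in the same order. The wildtype range was set by the air group, whose female F1 stood far above every other array. In deficient air Adipoq read 6.32, 6.43, 6.97 and 8.82, and in deficient ozone 6.36, 6.14, 6.33 and 6.07. Deficient air F2 lay inside the wildtype range, whereas all 4 deficient ozone arrays lay below every wildtype array. The genotype label of deficient air F2 was kept, and whether it is right was not tested.

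Over both exposures the deficient arrays averaged 6.68 ± 0.90 and the wildtype arrays 8.48 ± 1.35 (SD, n = 8 each). The difference was -1.80 (exact permutation test, two-sided, p = 0.00420, and 0.0168 after Benjamini-Hochberg adjustment over 4 Adipoq tests). In ozone the groups stood at 6.22 ± 0.14 and 8.05 ± 0.49 (SD, n = 4 each) and did not overlap. That difference was -1.82, or 3.54-fold (exact permutation p = 0.0286, adjusted p = 0.0571, where 0.0286 is the lowest p that groups of 4 can give). In air the difference was of like size, -1.78, but the groups overlapped (exact permutation p = 0.143, adjusted p = 0.143). In order of mean, the groups ran from wildtype air at 8.91 ± 1.87 through wildtype ozone and deficient air at 7.13 ± 1.16 to deficient ozone. Neighbours in that order overlapped in each case. The limma fit, which draws the variance of each probe set towards a common prior, gave a genotype difference of -1.80 ± 0.41 with adjusted p = 0.117, so Adipoq was not past the threshold there. Its spread within groups was 1.13 log2, above that of 99.7% of probe sets and against a median of 0.126.

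The spread of Adipoq moved with genes of fat cells. Wildtype air F1 and deficient air F2 were the arrays highest in the mean of 15 fat cell genes, at 9.83 and 9.85, and they differed there by 0.026. For Adipoq the deficient array minus the wildtype array of that pair was -2.70, a difference between single arrays with no replicate. Cidec, which enlarges the lipid droplets of fat cells, read 8.67 and 8.54 on these arrays against 5.25 to 6.40 on the rest. Without this pair, Adipoq lay between 7.19 and 8.89 on 7 wildtype arrays and between 6.07 and 6.97 on 7 deficient arrays, so that the genotypes did not overlap. Over all probe sets, 0.0663% did not overlap in this way and 0.0398% were lower. The fat cell mean of the same arrays overlapped, from 8.03 to 8.58 in wildtype and from 7.91 to 8.71 in deficient mice. Without the pair the difference was -1.67 in the exact permutation test (p = 0.000583, range 0.000311 to 0.0211 over 20 alternatives). It was -1.65 in limma, with an adjusted p of 0.00398 (range 0.00398 to 0.372 over 29 alternatives). The permutation p of 0.000583 is the lowest that groups of 7 can give, so it only restates that they did not overlap. The pair was picked from these same data, and it held the deficient array inside the wildtype range. Leaving out the 3 arrays with markers of other tissues gave -1.66 with limma adjusted p = 0.0105. How far tissue taken with the lung sets the level of Adipoq was not tested.

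**Figure D2:**
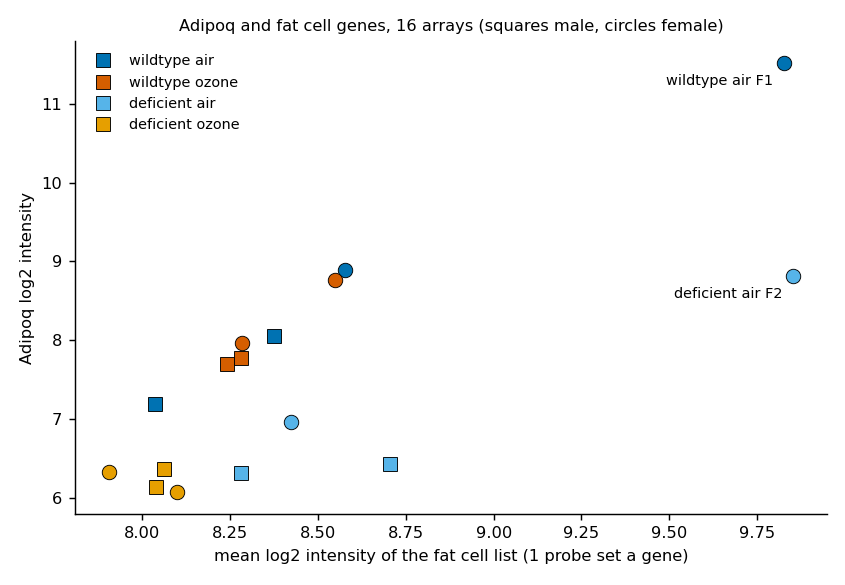
Log2 intensity of Adipoq (y axis) against the mean log2 intensity of 15 fat cell genes (x axis, 1 probe set a gene, Adipoq not included) on 16 arrays, coloured by group, with squares for males and circles for females. Wildtype air F1 and deficient air F2 lie together at 9.83 and 9.85 on the x axis and apart at 11.52 and 8.82 on the y axis.

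Genes that deviated from their group means most like Adipoq, over the 16 arrays, were Ptger3, a prostaglandin E receptor (r = 0.956), Ephx2, the soluble epoxide hydrolase (0.955), Gpd1, a glycerol phosphate dehydrogenase (0.954), Retn, the fat cell hormone resistin of mice (0.950), and Fabp4, a fatty acid carrier of fat cells (0.944). Without wildtype air F1 and deficient air F2 these values were 0.879, 0.836, 0.868, 0.876 and 0.855. Arrays share their RNA and normalization across genes, so these values describe likeness only. Summed over the fat cell list, linear intensity in air ran from 14336 to 38325 in wildtype and 15245 to 41771 in deficient mice. In ozone it ran from 17632 to 21601 and 15587 to 19469. The brown fat list ran from 492 to 1236, 668 to 1350, 608 to 658 and 562 to 656 in the same order. Its highest sum, 1350, was on deficient air M2, where Ucp1 read 4.80, and deficient air F2 had 1097.

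Ozone did not move Adipoq past the threshold. The difference was -0.86 ± 0.57 in wildtype mice (95% interval -2.09 to 0.36, limma adjusted p = 0.257) and -0.91 ± 0.57 in deficient mice (-2.13 to 0.32, adjusted p = 0.264). Both arrays with fat markers were in air, and without them the differences were -0.086 and -0.44, neither of them called. In wildtype males alone the sign turned, to 0.11.

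No Adipor1 probe set was called for ozone or genotype, and its groups differed by less than the spread of the mice. On its brightest probe set, 1439017_x_at, wildtype air read 10.86, 11.01, 10.63 and 10.63 and wildtype ozone 10.80, 11.22, 10.78 and 10.82 (M1, M2, F1, F2). Deficient air read 10.79, 10.86, 10.59 and 10.69, and deficient ozone 10.92, 10.82, 10.77 and 10.72. All 4 groups overlapped, and the males were the higher mice in 3 of them without exception. By mean the order was wildtype ozone at 10.90 ± 0.21, deficient ozone at 10.81 ± 0.087, wildtype air at 10.78 ± 0.19 and deficient air at 10.73 ± 0.12 (SD, n = 4 each), with no neighbours apart. The ozone difference was 0.12 ± 0.078 in wildtype mice (95% interval -0.046 to 0.29, limma adjusted p = 0.246) and 0.07 ± 0.078 in deficient mice (-0.091 to 0.24, adjusted p = 0.514). The genotype difference over both exposures was -0.07 ± 0.055 (adjusted p = 0.592). Leaving out wildtype ozone M1 gave a wildtype ozone difference of 0.19 that passed, at adjusted p = 0.0499 (range 0.0499 to 0.979 over 30 alternatives). Without wildtype ozone M2 it was 0.04.

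Adipor2 fell with ozone in wildtype mice, by 0.28 ± 0.091 or 1.21-fold (limma adjusted p = 0.0264). It read 10.39, 10.48, 10.71 and 10.43 in wildtype air and 10.15, 10.34, 10.18 and 10.21 in wildtype ozone (M1, M2, F1, F2). The lowest air array lay above the highest ozone array. It was the only 1 of the 8 probe sets called in this comparison, and the only 1 at an unadjusted p under 0.05, where 45.9% of all probe sets lay. In this comparison 36.3% of all probe sets were called and 18.2% were called lower. Groups did not overlap in 30.7% of all probe sets, so a call of this kind was common across the array. In deficient mice the values were 10.09, 10.45, 10.32 and 10.43 in air and 10.42, 10.41, 10.30 and 10.19 in ozone. These overlapped, and the ozone difference was 0.01 ± 0.091 (95% interval -0.19 to 0.20, adjusted p = 0.963).

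A call in 1 genotype and none in the other does not show that the genotypes differ, so the difference was tested itself. The interaction was 0.28 ± 0.13 (95% interval 0.012 to 0.56) with limma adjusted p = 0.974, and it was not called. By mean the groups ran from wildtype air at 10.50 ± 0.14 to deficient ozone at 10.33 ± 0.10, deficient air at 10.32 ± 0.16 and wildtype ozone at 10.22 ± 0.085 (SD, n = 4 each), and neighbours overlapped. Genotype differences were -0.18 ± 0.091 in air (adjusted p = 0.725) and 0.11 ± 0.091 in ozone (adjusted p = 0.705). The wildtype call held in 22 of 30 alternatives (adjusted p 0.0137 to 0.314) and was lost in males alone (-0.19, adjusted p = 0.314), in females alone (-0.37, 0.0620) and without the arrays with fat markers (-0.20, 0.0910) or with markers of other tissues (-0.20, 0.0693). It was also lost without wildtype air F1 (-0.20, 0.0905) and without wildtype ozone M1 (0.0729), F1 (0.0623) or F2 (0.0527).

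Adipor2 is read by 1 probe set, whose suffix _s_at is the array maker's mark for probes that match more than 1 transcript, and the suffix _x_at of the brightest Adipor1 probe set marks probes shared in part with other sequences. A contribution of other transcripts to either was not tested. The genes whose deviations were most like those of Adipor2 were Crat, the carnitine acetyltransferase (r = 0.831), Tnrc6b, a scaffold of RNA silencing (between this value and the next), Cluh, a binder of mRNAs for mitochondrial proteins (0.824), Dgat2, which makes triglyceride (0.813), and Cemip, which acts in hyaluronan breakdown (0.809). Without wildtype air F1 and deficient air M1 these fell to 0.675, 0.633, 0.657, 0.689 and 0.719.

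Cdh13 was lower in deficient mice on its brightest probe set, 1423551_at, without passing the threshold over all probe sets. Wildtype air read 7.74, 7.71, 7.71 and 7.73, a group with an SD of only 0.017. Wildtype ozone read 8.07, 7.86, 7.71 and 7.62. Deficient air read 7.60, 7.80, 7.23 and 7.24, and deficient ozone 7.05, 7.50, 7.46 and 7.05. By mean the order was wildtype ozone at 7.81 ± 0.20, wildtype air at 7.72, deficient air at 7.47 ± 0.28 and deficient ozone at 7.26 ± 0.25 (SD, n = 4 each), and neighbours overlapped. In air the male M2 of the deficient group stood above the wildtype mice and the other 3 deficient mice below them, and in ozone all 4 deficient mice lay below all 4 wildtype mice. The difference was -0.26 ± 0.12 in air (limma adjusted p = 0.718), -0.55 ± 0.12 in ozone (adjusted p = 0.136) and -0.40 ± 0.085 over both (95% interval -0.59 to -0.22, adjusted p = 0.0945).

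Over both exposures, 0 of the 8 probe sets were called for genotype by limma, 2 had an unadjusted p under 0.05, Adipoq and this Cdh13 probe set, and of all probe sets 0.106% were called and 12.9% had such a p. In air 0 of 8 were called against 0.00884% of all, with 2 at an unadjusted p under 0.05 against 6.91%. In ozone 0 of 8 were called against 0.0133% of all, with 3 at an unadjusted p under 0.05 against 10.9%. In ozone, 2 of 8 probe sets, those of Adipoq and Cdh13 1423551_at, did not overlap between genotypes, against 5.26% of all probe sets, and both were lower, against 3.34%. Without deficient ozone F1 the Cdh13 difference over both exposures was -0.46 and passed (adjusted p = 0.0376, range 0.0376 to 0.354 over 29 alternatives). Averaged over the 3 Cdh13 probe sets it was -0.17 (adjusted p = 0.247).

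The other 2 Cdh13 probe sets were dim, and 1 of them, 1431824_at, did not follow the first. Probe set 1454015_a_at read 4.79, 4.94, 4.46 and 4.57 in wildtype air and 4.71, 4.58, 4.60 and 4.62 in wildtype ozone. In deficient mice it read 4.97, 4.75, 4.39 and 4.57 in air and 4.45, 4.41, 4.59 and 4.17 in ozone. Deficient ozone was the lowest group by mean, at 4.41 ± 0.17 (SD, n = 4), and it overlapped each of the others. Its genotype difference in ozone was -0.22 ± 0.10 (limma adjusted p = 0.454). Probe set 1431824_at ran from 4.19 to 4.48 over all arrays, with group means between 4.27 ± 0.051 in deficient ozone and 4.37 ± 0.057 in deficient air (SD, n = 4 each). Its mean level was above only 5.48% of probe sets. Over the 16 arrays, deviations from group means on 1423551_at followed those on 1454015_a_at with r = 0.532 and those on 1431824_at with r = 0.044, and the dim pair with r = -0.134. By contrast the 3 Adipor1 probe sets followed each other with r of 0.906, 0.744 and 0.630.

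Ozone did not change Cdh13 past the threshold in either genotype. On 1423551_at the difference was 0.09 ± 0.12 in wildtype mice (95% interval -0.17 to 0.35, limma adjusted p = 0.592) and -0.20 ± 0.12 in deficient mice (-0.46 to 0.054, adjusted p = 0.233). In deficient mice 1454015_a_at differed by -0.26 ± 0.10 (adjusted p = 0.0657) and 1431824_at by -0.11 ± 0.061 (adjusted p = 0.216). The latter did not overlap between deficient air and ozone, though the nearest arrays both read 4.32. In that comparison limma called 0 of the 8 probe sets, with 1 at an unadjusted p under 0.05. Over all probe sets 29.3% were called, 39.4% had an unadjusted p under 0.05 and 27.2% did not overlap. The 1454015_a_at difference passed without deficient air F1 (-0.33, adjusted p = 0.0361) and without deficient ozone F1 (-0.37, 0.00832), in males alone (-0.43, 0.0398) and with an intensity trend and robust prior (-0.26, 0.0495), and its adjusted p ran from 0.00832 to 0.691 over 27 alternatives.

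Markers of endothelium, where T-cadherin is found, gave no call for genotype. The 22 probe sets of 15 endothelial genes had 0 calls over both exposures by limma, 2 at an unadjusted p under 0.05, and a median difference of -0.08 against -0.01 over all probe sets. In air the median was -0.11 against -0.01 over all, with 5 of 22 at an unadjusted p under 0.05 against 6.91% of all. In ozone it was -0.02 against -0.01, with 0 of 22 at such a p against 10.9% of all. Over both exposures 12.9% of all probe sets had such a p. Their summed linear intensity ran from 25990 to 28589 in wildtype air, 24429 to 27964 in deficient air, 23666 to 27507 in wildtype ozone and 24867 to 27203 in deficient ozone. Cdh5, vascular endothelial cadherin, ran from 9.67 to 10.20 in wildtype air and 9.61 to 9.98 in deficient air, and from 10.04 to 10.85 in wildtype ozone and 10.20 to 10.62 in deficient ozone. Pecam1, an adhesion molecule of endothelium and platelets, ran from 10.20 to 11.03 and 10.45 to 10.66 in air and from 10.73 to 10.96 and 10.71 to 10.95 in ozone, wildtype first. Genes whose deviations were most like those of 1423551_at were Csnk1e, a casein kinase (r = 0.850), Actn4, an actin crosslinker (0.847), Zbtb44, a zinc finger protein (0.827), Creb3l3, a transcription factor (0.818), and Gtpbp4, a GTPase of ribosome assembly (0.815). Without deficient air M2 and wildtype ozone M1 these were 0.792, 0.805, 0.761, 0.779 and 0.778.

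**Figure D3:**
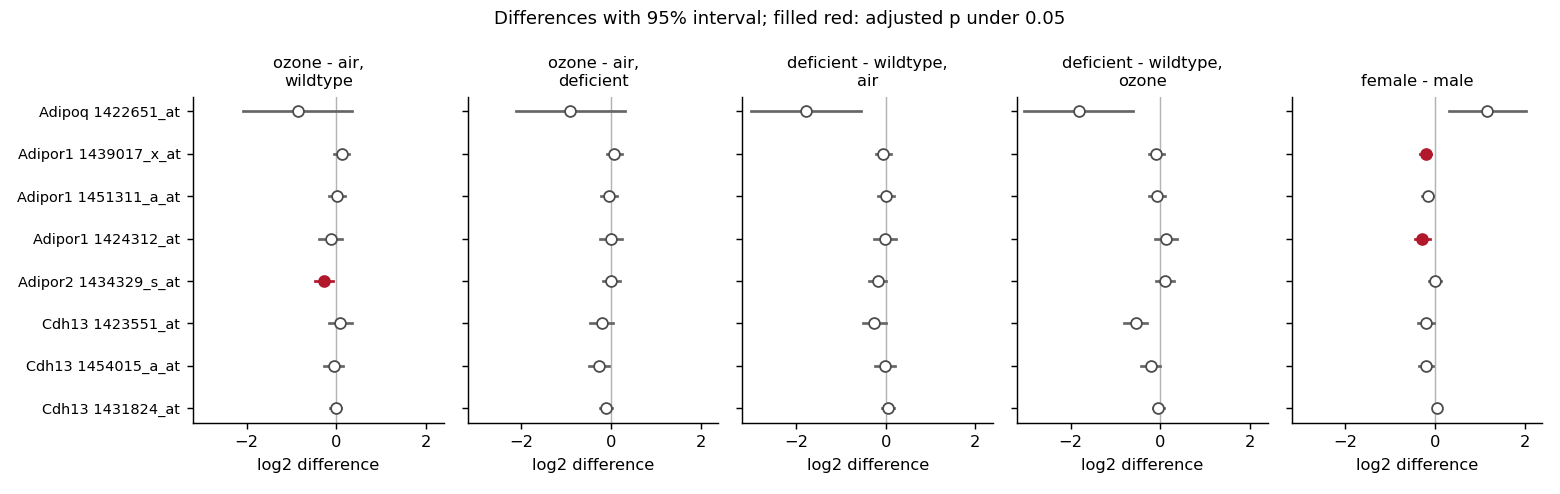
Log2 differences (x axis) of the 8 probe sets of Adipoq, Adipor1, Adipor2 and Cdh13 (y axis) in 5 comparisons from the limma fit of 16 arrays, with 95% intervals as bars and filled points for adjusted p under 0.05. Filled points are Adipor2 for ozone in wildtype mice at -0.28 and 2 Adipor1 probe sets for sex at -0.21 and -0.28.

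Of the 7 comparisons, sex had the most calls among the 8 probe sets. Adipor1 was lower in females than in males, by 0.21 ± 0.055 on 1439017_x_at (1.15-fold, limma adjusted p = 0.0300) and by 0.28 ± 0.082 on 1424312_at (1.21-fold, adjusted p = 0.0454). On the third probe set, 1451311_a_at, the difference was -0.16 ± 0.059 (adjusted p = 0.106). These were 2 of the 8 probe sets called, against 9.18% of all probe sets and 5.41% called lower. A further 4 had an unadjusted p under 0.05, 6 of 8 in all, against 23.6% of all probe sets.

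On 1424312_at males read 7.35 and 7.74 (wildtype air), 7.31 and 7.71 (wildtype ozone), 7.48 and 7.90 (deficient air) and 7.50 and 7.61 (deficient ozone). Females read 7.38 and 7.41, 7.13 and 7.22, 7.36 and 7.10, and 7.34 and 7.42 in the same groups. On 1451311_a_at males read 10.33 and 10.64, 10.23 and 10.58, 10.50 and 10.40, and 10.40 and 10.30, and females 10.20 and 10.22, 10.27 and 10.38, 10.18 and 10.33, and 10.26 and 10.25. On each of the 3 probe sets, which all read Adipor1, the female mean lay below the male mean in 4 of 4 groups, and both females lay below both males in 3 of 4. How often this holds over all probe sets was not counted. The female mean also lay below in 4 of 4 groups on Cdh13 1423551_at and 1454015_a_at. Over all 8 males and 8 females the ranges overlapped, for instance from 10.79 to 11.22 and from 10.59 to 10.82 on 1439017_x_at.

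The calls were near the threshold. That of 1439017_x_at held in 18 of 25 alternatives (adjusted p 0.00960 to 0.0927) and was lost without the arrays with fat markers (0.0642) or with markers of other tissues (0.0927), and without wildtype air M2 (0.0613), F1 (0.0629) or F2 (0.0513), deficient air F1 (0.0622) or deficient ozone M1 (0.0556). That of 1424312_at held in 6 of 23 (0.0254 to 0.141) and was lost without any 1 of wildtype air M2, F1 and F2, deficient air M2, F1 and F2, wildtype ozone M2, F1 and F2 and all 4 deficient ozone mice, without either set of arrays with foreign markers, and after quantile (0.0543) or median normalization (0.0572). Without wildtype ozone M1, 1451311_a_at passed at -0.20 (adjusted p = 0.0348, range 0.0348 to 0.206 over 23 alternatives).

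The spread of Adipor1 moved with genes of platelets. The 5 genes most like 1439017_x_at, after group means were taken out, were Ppbp, the platelet basic protein precursor (r = 0.970), Cdkn2d, an inhibitor of cyclin-dependent kinases (0.942), Pf4, a platelet chemokine (0.933), and Gp9 and Gp5, parts of the platelet receptor for von Willebrand factor (0.918 and 0.912). Without wildtype ozone M2 and wildtype air M2, the arrays farthest from the middle, they were 0.934, 0.873, 0.861, 0.869 and 0.833. A list of 16 platelet genes was chosen after this was seen and holds Ppbp, Pf4, Gp9 and Gp5, so it describes the pattern and adds no support to it. Of its 12 measured genes 11 followed 1439017_x_at with a positive r, at a median of 0.873. The median was 0.706 for 1451311_a_at and 0.679 for 1424312_at. With sex as well as group taken out, the median was 0.698 for 1439017_x_at, 0.519 for 1451311_a_at and 0.386 for 1424312_at. For 1439017_x_at the median r over 6 red blood cell genes was 0.566, or 0.101 with sex taken out, and over 10 neutrophil genes it was 0.699, or 0.692. With sex taken out, the neutrophil median was 0.342 for 1451311_a_at and 0.396 for 1424312_at.

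Blood cell genes were set beside this by sex, with no test. Summed platelet intensity ran from 2351 to 4591 in males (median 3542) and from 1885 to 3555 in females (median 2422). The female mean of Ppbp, Pf4, Gp9, Gp5 and Itga2b, the platelet integrin chain, was below the male mean in 4 of 4 groups, as it was for Adipor1. Ppbp, Pf4, Gp9 and Gp5 had been picked for deviating like Adipor1 with sex not taken out, so this likeness adds no support. The other platelet genes were not read singly by sex. Red blood cell genes ran from 2112 to 3085 in males and from 831 to 1653 in females and did not overlap. Neutrophil genes ran from 2650 to 48417 in males, the highest being wildtype ozone M2, and from 3304 to 8230 in females. The female median of the neutrophil sum was above the male median in deficient air (5770 against 4509) and deficient ozone (6396 against 5454), and the female mean of S100a8 was below the male mean in 2 of 4 groups. The part of blood cells in the sex difference of Adipor1 was not tested. Without wildtype ozone M2 that difference was -0.17 on 1439017_x_at (adjusted p = 0.0465) and -0.24 on 1424312_at (adjusted p = 0.0847).

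**Figure D4:**
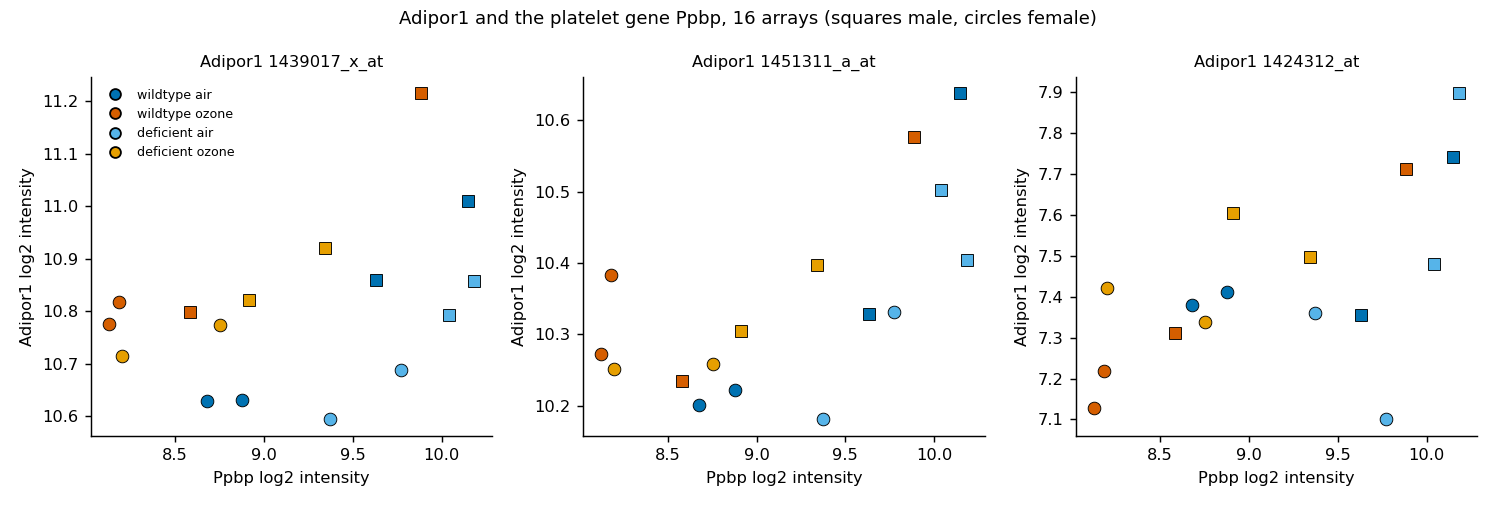
Log2 intensity of the 3 Adipor1 probe sets (y axes) against that of the platelet gene Ppbp (x axes) on 16 arrays, coloured by group, with squares for males and circles for females. Within each group the arrays high in Ppbp tend to be high in Adipor1, with r = 0.970 over 16 arrays on 1439017_x_at after group means are taken out.

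Adipoq was higher in females, without passing the threshold. Wildtype females averaged 9.28 ± 1.55 and wildtype males 7.68 ± 0.36 (SD, n = 4 each). They differed by 1.60 or 3.04-fold (exact permutation test, two-sided, p = 0.0571, adjusted p = 0.0762 over 4 tests). Over both genotypes limma gave 1.17 ± 0.41 (adjusted p = 0.0875). Both arrays with fat markers were female, and without them this was 0.54 (adjusted p = 0.0995). In deficient ozone the female mean was below the male mean, at 6.20 against 6.25. Without wildtype air F1 the wildtype difference was 0.86 (exact permutation p = 0.0857) and without wildtype ozone F1 it was 2.05 (exact permutation p = 0.0286, range 0.0286 to 0.0857 over 12 alternatives). Cdh13 was lower in females by limma without a call, at -0.20 ± 0.085 on 1423551_at (adjusted p = 0.174) and -0.20 ± 0.072 on 1454015_a_at (adjusted p = 0.0951). The latter passed without deficient ozone F1 (-0.25, adjusted p = 0.0247, range 0.0247 to 0.241 over 22 alternatives). Adipor2 showed no call by sex (adjusted p = 0.961).

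The pathway around the 4 genes was read through lists of known partners and targets. For each of these 12 lists limma called 0 probe sets by genotype in air, in ozone or over both, and 0 for the interaction. At an unadjusted p under 0.05 stood 0 to 5 of a list, where a list held 6 to 25 probe sets. By genotype 6.91% of all probe sets had such a p in air, 10.9% in ozone and 12.9% over both. The interaction had no call among all 22626 probe sets either, 0%, with 1121 or 4.95% at an unadjusted p under 0.05 and 1 of the 8 probe sets above, Adipor2. With ozone each list but the macrophage markers held calls in both genotypes, and these counts stand beside 36.3% of all probe sets called in wildtype and 29.3% in deficient mice. The C1q, cadherin, fat cell, endothelial and macrophage lists lay below that share in wildtype mice. The cadherin, fat cell, brown fat, smooth muscle and macrophage lists lay below it in deficient mice. The ozone contrasts of the 2 genotypes compared different mice. Both came from the same fit, with a sex term and a variance shared across all arrays, so they were not independent tests.

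Genes for assembly and secretion of adiponectin, which act in the endoplasmic reticulum and Golgi, numbered 4 with 7 probe sets. In wildtype mice 2 probe sets rose and 3 fell with ozone, and in deficient mice 1 rose and 3 fell. Ero1a, an oxidase that drives disulfide formation, fell by 0.39 ± 0.067 in wildtype and 0.26 ± 0.067 in deficient mice. Erp44, which retains adiponectin in the secretory pathway, fell on 1423246_at by 0.35 ± 0.076 in wildtype mice and by 0.24 ± 0.076 in deficient mice, while its probe set 1423247_at rose by 0.18 ± 0.060 in wildtype mice. Gga1, a sorting adaptor of the Golgi, rose by 0.29 ± 0.072 and 0.34 ± 0.072. The Erp44 call in deficient mice was lost without deficient air M1 (limma adjusted p = 0.0787), deficient air F2 (0.0631) or deficient ozone F2 (0.0975). These genes serve many secreted proteins.

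Receptor adaptors and signalling genes numbered 11 with 21 probe sets, of which 4 rose and 4 fell with ozone in wildtype mice and 5 rose and 2 fell in deficient mice. Calr, calreticulin, which can bind adiponectin on cell surfaces, rose by 0.41 ± 0.056 and 0.58 ± 0.056 on 1456170_x_at. Lrp1, its partner in uptake of dying cells, rose by 0.47 ± 0.11 in deficient mice. Appl1, the adaptor that binds the tail of both AdipoR proteins, fell by 0.36 ± 0.097 in wildtype and 0.38 ± 0.097 in deficient mice. Sirt1, a deacetylase downstream of AdipoR1, fell by 0.76 ± 0.11 and 0.68 ± 0.11.

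Targets of PPAR-alpha and AMPK mostly fell where they changed. Of 23 probe sets for 12 genes, 10 fell and 0 rose with ozone in wildtype mice, where 18.2% of all probe sets fell, and 8 fell and 1 rose in deficient mice, where 14.8% of all fell. The fallen ones were of 6 genes in each genotype, so some genes were counted more than once. The median difference was -0.23 in both genotypes, against 0.02 and 0.00 over all probe sets. Ppargc1a, the coactivator PGC-1 alpha, fell by 0.87 ± 0.13 and 0.84 ± 0.13 on 1460336_at. Cat, the peroxide-degrading enzyme catalase, fell by 0.61 ± 0.16 and 0.60 ± 0.16. Ppara itself fell by 0.30 ± 0.093 in wildtype and 0.52 ± 0.093 in deficient mice. The count of fallen probe sets dropped to 6 without wildtype air F2 and 5 without wildtype ozone M2 in wildtype mice, and to 4 without deficient air M1 or deficient ozone F2 and 5 without deficient air F2 in deficient mice.

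Among relatives of the receptors, 4 genes of the PAQR family other than Adipor1 and Adipor2 had 6 probe sets, of which 1 rose and 2 fell in wildtype and 2 fell in deficient mice with ozone. Both that fell were of Mmd, a monocyte to macrophage differentiation gene, which fell by 0.60 ± 0.092 and 0.67 ± 0.092 on 1423489_at. Mmd2 rose by 0.35 ± 0.12 in wildtype mice (limma adjusted p = 0.0392), a call that was lost without wildtype air M1, M2 or F2 or any 1 wildtype ozone array. By genotype limma called 0 of the 6 PAQR probe sets. At an unadjusted p under 0.05 stood 4 over both exposures, 3 in ozone and 2 in air, against 12.9%, 10.9% and 6.91% of all.

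Among relatives of adiponectin that share its C1q domain, 12 genes had 23 probe sets, of which 3 rose and 2 fell in wildtype and 6 rose and 2 fell in deficient mice. Emilin1, a matrix protein of elastic fibres, rose by 0.83 ± 0.087 in wildtype mice on 1431834_a_at and by 1.08 ± 0.084 in deficient mice on 1416414_at. C1qtnf12, an adipokine, fell by 0.48 ± 0.092 and 0.45 ± 0.092 on 1439422_a_at, but rose by 0.31 ± 0.10 in deficient mice on 1417393_a_at, so its probe sets disagreed. The count of risen probe sets in deficient mice was 3 without deficient ozone F2.

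Of 11 cadherin genes other than Cdh13, with 14 probe sets, 1 rose and 2 fell in wildtype and 1 rose and 1 fell in deficient mice. Cdh2, neural cadherin, fell by 0.54 ± 0.11 in wildtype mice and by 0.36 ± 0.11 in deficient mice, a call lost when deficient air M1 or M2 or deficient ozone M2 or F1 was left out. Cdh5 fell by 0.50 ± 0.11 in wildtype mice on 1422047_at and rose by 0.56 ± 0.14 in deficient mice on another probe set, 1433956_at, so the genotypes cannot be set against each other from these calls. By sex, 3 cadherin probe sets were higher in females, led by Cdh2 at 0.27 ± 0.078 and Cdh11, a mesenchymal cadherin, at 0.26 ± 0.064. The Cdh11 call was lost without wildtype air F1 (limma adjusted p = 0.0502), and the count was 1 in place of 3 when any 1 of 12 arrays was left out, those other than wildtype air F2 and deficient air M1, M2 and F1.

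Markers of the cells around the 4 genes were counted in the same way. In the fat cell list, 25 probe sets for 15 genes, 2 rose and 1 fell in wildtype and 2 rose and 5 fell in deficient mice, with the deficient count of fallen probe sets at 1 without deficient air F2, 2 without deficient ozone F1, 3 without deficient ozone F2, 12 without wildtype air F1 and 13 without deficient air F1. The wildtype count of fallen probe sets was 0 without wildtype air F1 or wildtype ozone M1 or F1 and 3 without wildtype air F2 or deficient air F2. The carbonic anhydrase gene Car3, strongly expressed by fat cells, fell by 2.61 ± 0.58 in deficient mice (limma adjusted p = 0.00337). Scd1 of the same list rose on 1415965_at, by 0.82 ± 0.29 in wildtype and 1.22 ± 0.29 in deficient mice. Its wildtype call held in 20 of 28 alternatives. In the brown fat list, 13 probe sets for 7 genes, 2 rose and 3 fell, and 0 rose and 2 fell. The fallen ones were all of Ppargc1a, which the PPAR-alpha and AMPK list also holds. The risen count was 0 without wildtype air M1 or wildtype ozone M1 or F1.

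In the endothelial list 0 rose and 7 fell in wildtype, and 5 rose and 4 fell in deficient mice. Ednrb, an endothelin receptor, fell by 1.24 ± 0.16 and 0.98 ± 0.16, and Sox17, a transcription factor of arterial endothelium, by 0.79 ± 0.15 and 0.81 ± 0.15. Cdh5, which this list also holds, rose by 0.56 ± 0.14 in deficient mice on 1433956_at and fell by 0.50 ± 0.11 in wildtype mice on 1422047_at. Without deficient ozone M2 the deficient count of risen endothelial probe sets was 3. Of 18 probe sets for 10 smooth muscle and pericyte genes, 4 rose and 3 fell, and 3 rose and 1 fell. Acta2, smooth muscle actin, rose by 0.54 ± 0.13 and 0.61 ± 0.13. Rgs5 of the same list fell by 0.84 ± 0.30 in wildtype mice on 1417466_at and by 0.60 ± 0.20 in deficient mice on 1420941_at. These calls held in 16 of 30 and 19 of 27 alternatives. The count of fallen smooth muscle probe sets was 1 without wildtype air M2 or F1 or wildtype ozone M1 or M2 in wildtype mice, and in deficient mice it lay between 0 and 3 when single arrays were left out. Of 7 alveolar type 1 probe sets for 6 genes, 2 rose and 1 fell, and 1 rose and 2 fell. Cav1, caveolin 1, fell by 0.37 ± 0.065 and 0.27 ± 0.065, while Ager of the same list rose by 0.31 ± 0.067 and 0.26 ± 0.067. Of 14 macrophage probe sets for 9 genes, 0 changed in wildtype mice and 1 fell in deficient mice, a count that turned to 0 without deficient air M1, F1 or F2 or deficient ozone M1, M2 or F2 and to 2 without deficient ozone F1.

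**Figure D5:**
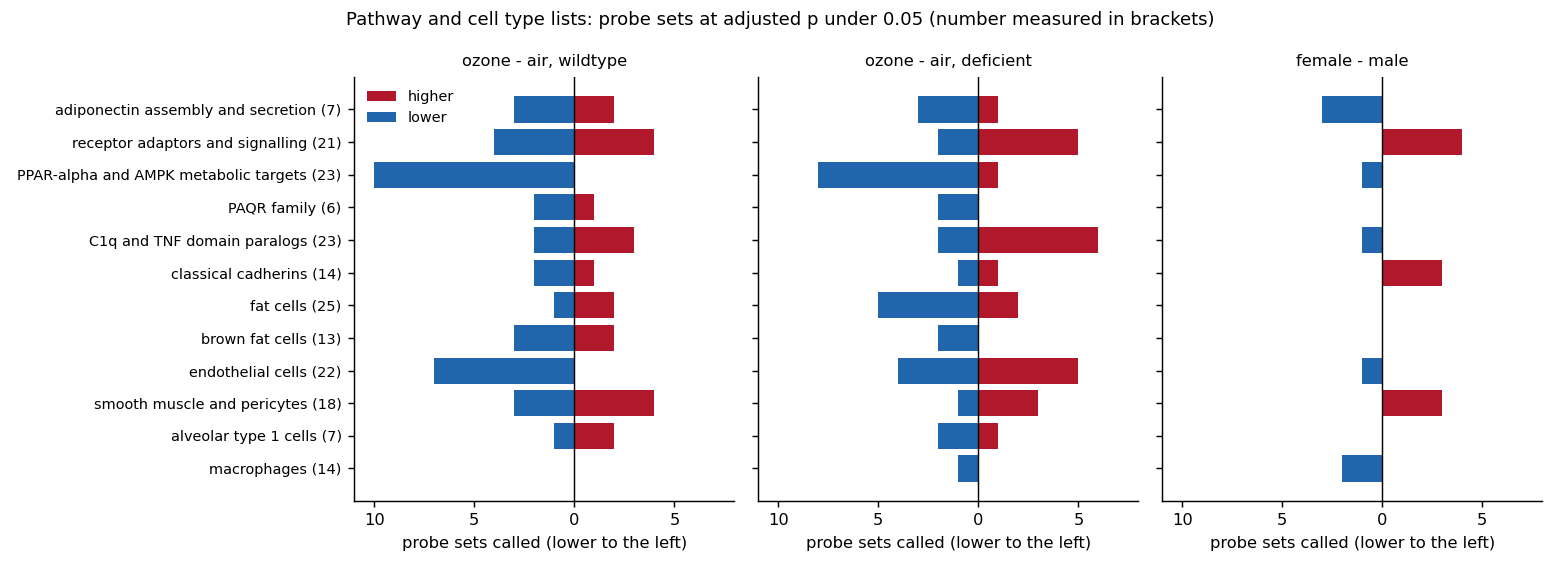
Number of probe sets (x axis, fallen to the left and risen to the right) at limma adjusted p under 0.05 in each pathway or marker list (y axis, number of probe sets in brackets) for ozone in wildtype mice, ozone in deficient mice and female against male. The longest bars are the PPAR-alpha and AMPK targets, 10 and 8 fallen with ozone.

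By sex the same lists were counted beside 3.77% of all probe sets called higher and 5.41% called lower in females. In females 3 assembly probe sets were lower, led by Ero1a at -0.26 ± 0.048, and 4 adaptor probe sets were higher, led by Calr at 0.29 ± 0.045 on 1433806_x_at. The smooth muscle list had 3 higher, among them Tagln, an actin-binding protein, at 0.40 ± 0.076. The macrophage list had 2 lower, Cd68, a lysosomal protein, at -0.68 ± 0.16 and Mrc1, the mannose receptor, at -0.45 ± 0.11. The endothelial list had 1 lower, Flt1, a receptor of vascular growth factor, at -0.39 ± 0.077. The PPAR-alpha and AMPK list had 1 lower, Cpt1a, the carnitine palmitoyltransferase of liver type, at -0.42 ± 0.11, lost without deficient ozone M1 (limma adjusted p = 0.0519). The C1q list had 1 lower, C1qc, a complement chain, at -0.53 ± 0.15, lost with 12 of the 16 arrays left out singly. The PAQR, fat, brown fat and alveolar type 1 lists had 0, by limma.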

How the data were processed

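RNA from the left lung of 16 mice was hybridised to 1-colour mouse expression arrays, 1 array per mouse. The authors deposited 1 table of linear intensity per probe set, normalized by RMA per the submitters' processing notes; software and version were not given in the sources used here. RMA shares probe effects across arrays and compresses low values. Of 22690 probe sets, 64 controls were left out. The platform annotation, which can be old, gave 1 symbol to 20380 probe sets, several to 691 and none to 1555. Log2 values were fitted with limma 3.58.1 (R 4.3.3) with 4 groups and sex over all 16 arrays, with Benjamini-Hochberg adjustment over 22626 probe sets. Adipoq was also tested by exact permutation. Figures used Python 3.11.15, pandas 2.3.3 and matplotlib 3.10.9.

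The fit was tested on simulated data. The members and lists were chosen with earlier results of these data known, and the platelet, red blood cell and neutrophil lists after the values of Adipor1 were seen. Named genes were the 4 members on all probe sets, the 5 genes most like the brightest probe set of each member in group-centred pattern, up to 3 called genes of largest absolute difference per list and comparison, and Cidec, Car3, Ucp1, Cyp2e1, Cdh5 and Pecam1 as markers (Plin1 was not measured). Other genes named were chosen after their values were seen. Cyp2e1 read 11.47 and 10.92 on wildtype air F1 and deficient air F2 against 7.01 to 9.49 elsewhere. Alternatives were quantile or median normalization, a filter on the dimmest 25% of probe sets, 1 value a gene, another variance prior, array weights, no sex term, a replicate block, compared groups alone, single sexes, and arrays left out. Promoter sequences are from RefSeq (GRCm38.p6), which matched 3 of the 4 genes.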

Additional observations from a re-analysis of the deposited data

Results flagged for a closer look

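On the Adipor1 probe set 1439017_x_at, wildtype ozone M2 read 11.22, far from the nearest array of its group at 10.82. On the Adipor1 probe set 1424312_at, wildtype air M2 read 7.74, far from the nearest array of its group at 7.41. Both stood out by Dixon's ratio of the gap to the range, and 2 of the 32 combinations of probe set and group tested stood out. Chance flags about 1 in 20 groups.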

How the results depend on the processing

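The 4 arrays a group limit the precision of each difference. By sex, 2 of the 8 probe sets were called, and the count was 1 after quantile or median normalization and with 1 probe set or the mean of probe sets per gene, 0 without the arrays with fat markers or markers of other tissues, and 0 to 3 with single arrays left out (3 without wildtype ozone M1). For ozone in wildtype mice the count of 1 was 0 in males alone, in females alone and without either set of arrays, and 0 to 1 with single arrays left out. For ozone in deficient mice the count of 0 was 1 with a trend and robust prior and in males alone, and 0 to 1 with single arrays left out. For genotype in ozone the count of 0 was 1 with compared groups alone and without either set of arrays. For genotype over both exposures it was 1 without either set, and 0 to 1 with single arrays left out. The Adipoq sex difference in wildtype mice was 0.86 to 2.05 with single arrays left out. Signs turned for Adipoq (ozone, wildtype males alone, 0.11), Cdh13 1423551_at (ozone in females alone, -0.059 in wildtype and 0.017 in deficient mice) and Adipor2 (ozone in deficient mice, -0.13 in females alone and -0.075 to 0.058 with single arrays left out, being below 0 at -0.075 without deficient air M1, -0.026 without deficient ozone M1 and -0.022 without deficient ozone M2). The cause was not tested, apart from the fewer arrays in these fits. Over all probe sets, the 3 called for genotype in ozone were 22 with array weights and 5 with the replicate block, and the 24 over both exposures were 8 with no sex term and 4 in males alone. The 8223 called for ozone in wildtype mice were 3022 in females alone, and the 6639 in deficient mice were 2688 in males alone. The replicate numbers were not treated as pairs in the main fit. Of 12 pairs, 1 had correlated deviations above 0.1 (range -0.097 to 0.13), which cannot show that the mice were unpaired. A replicate block left the counts of the 8 probe sets at 1 with ozone in wildtype mice and at 0 with ozone in deficient mice, by genotype and for the interaction. Sex cannot be estimated with no sex term, with the block or in single sexes, so it was not run there.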
